A study of Mus musculus with 4 samples.

Results

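The genes of the major histocompatibility complex (MHC, named H2 in the mouse) and of antigen presentation were followed in NIH-3T3:Per2-Luc cells, a mouse fibroblast line with a luciferase reporter driven by the *Per2* promoter. The members were all non-control probes of the array whose gene name starts with H2- or is *Tap1*, *Tap2*, *Tapbp*, *Tapbpl*, *B2m*, *Cd74*, *Ciita*, *Nlrc5*, *Erap1*, *Cd1d1*, *Mr1* or *Rfx5*. This gave 70 of the 39429 probes, with 53 of 30175 gene names, 41 of which start with H2-. Cells received a cOS-pulse (critical oxidative stress, 5 mM H2O2 for 10 min) and their RNA was taken 4 h, 20 h or 32 h later. The control received 0 mM H2O2 and a change to fresh medium, and its label gives 4 h. Each condition was 1 one-color Agilent array, all 4 arrays lay on 1 slide, and every time point was compared with the same single control. In ratios over it at 20 h and 32 h, the pulse and the longer time in culture therefore cannot be told apart.

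MHC class I molecules are found on nearly all nucleated cells. A heavy chain pairs with beta-2 microglobulin (*B2m*) and shows peptides from inside the cell, which the TAP transporter brings into the endoplasmic reticulum and tapasin (*Tapbp*) helps to load. MHC class II molecules are chiefly made by B cells, dendritic cells and macrophages, load peptides in endosomes with the help of the invariant chain (*Cd74*) and H2-DM, and depend on the coactivator CIITA, while NLRC5 is its class I counterpart.

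By role, 40 probes (29 genes) belonged to class I heavy chains, 4 probes to *B2m* and the class I-like genes *Cd1d1* and *Mr1*, 5 to peptide supply and loading, and 2 to *Nlrc5*. Class II chains had 14 probes (11 genes), and the class II regulators *Ciita* and *Rfx5* had 3. *H2-Ke2* and *H2-Ke6*, with 1 probe each, carry the name but encode no MHC chain. The array annotation gave a position (mouse genome mm9) for 65 of the 70 probes.

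Probe sequences bear on what a class I signal can mean, because the heavy chains are paralogs. Of the 40 heavy chain probes, 13 shared a run of at least 15 bases with another member probe. The pair with the longest run between differently named genes, and a pair of non-classical genes, are shown 5′ to 3′ with the shared run in capitals. The *H2-K1* probe lies at chr17:34133984-34134043 and the *H2-T23* probe at chr17:36167338-36167574 (both minus strand), and the *H2-Q2* probe lies at chr17:35460007-35460066 and the *H2-Q10* probe at chr17:35610036-35610095 (both plus strand, mm9).
H2-K1: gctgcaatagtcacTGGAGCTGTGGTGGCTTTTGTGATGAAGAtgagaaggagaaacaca
H2-T23: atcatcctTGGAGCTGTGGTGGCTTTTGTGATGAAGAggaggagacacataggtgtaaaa
H2-Q2: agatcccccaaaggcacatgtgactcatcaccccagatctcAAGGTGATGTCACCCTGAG
H2-Q10: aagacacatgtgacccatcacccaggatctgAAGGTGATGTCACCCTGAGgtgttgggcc
The first pair shares 29 bases and the second 19. The other *H2-Q2* probe lies at chr17:35482113-35482172. The *H2-Q1* probe, at chr17:35461859-35461918, is nearer to the printed *H2-Q2* probe, so its name and position leave the gene in doubt. Where the run is shared with a differently named gene, values are therefore uncertain as to gene, and class I probes are not independent of each other. Probes were compared only with other member probes. Binding of a probe to transcripts of other class I genes was not checked, so a probe without a shared run is not free of this doubt. The 13 also include the probes of *H2-T18*, which share their run of 34 bases only with each other.

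Signals are given as log2 values after subtracting the 75th percentile of the array, and a probe counted as detected where the scanner software placed 50% or more of its spots well above background. Of the 70 members, 40 were detected in the control, 41 at 4 h, 37 at 20 h and 36 at 32 h. Over all probes, 53.4% were detected in the control, 59.1% at 4 h, 55.2% at 20 h and 52.7% at 32 h. Class I heavy chains had 21 probes detected on all 4 arrays, 3 on some and 16 on none. Class II chains had only 2 probes detected on all 4 arrays, those of *H2-DMa* and *H2-DMb1*, with 6 detected on some and 6 on none. The number of class II chain probes detected was 6 in the control, 5 at 4 h, 3 at 20 h and 3 at 32 h. The class II genes *H2-Eb1*, *H2-Eb2* and *H2-DMb2* were detected on no array. Whether the H2 haplotype of the cell line differs from the probe sequences was not checked.

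**Figure D1:**
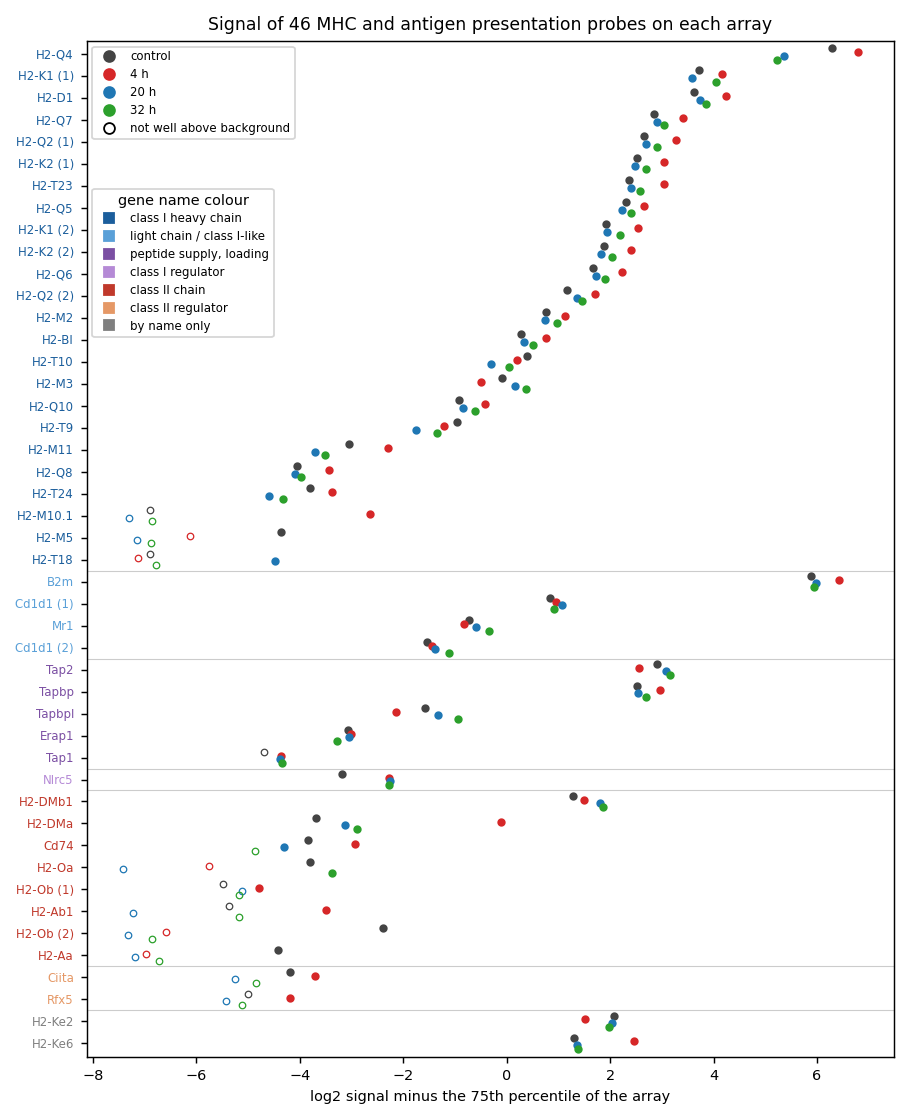
log2 signal minus the 75th percentile of the array (x axis) for the 46 member probes detected on at least 1 of the 4 arrays, grouped by role, with 1 point per array and open points where the probe was not well above background. Class I heavy chains have 21 probes with 4 filled points and class II chains have 2, and brightness is not comparable between probes.

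At 4 h after cOS-pulse, 4 of the 70 members (5.71%) exceeded the control by 2-fold or more, where 6.77% of all probes did, and 2 (2.86%) lay 2-fold or more under it, where 4.94% of all probes did. With so few members called, these shares were not read as a difference from the whole array. With 1 array per condition there was no test, and the ± values are the spot errors of the scanner software, which do not cover differences between cultures. Where only 1 of a pair of arrays detected a probe, the ratio is a bound.

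The class II members past 2-fold at 4 h went in both directions. *H2-DMa*, a chain of the H2-DM peptide exchange factor, had log2 signals of -3.68 in the control, -0.11 at 4 h, -3.12 at 20 h and -2.90 at 32 h, detected on every array. The 4 h array was the high one, with a log2 ratio of 3.57 ± 0.26 (11.9-fold), against 0.56 ± 0.27 at 20 h and 0.78 ± 0.28 at 32 h. With normexp background correction the 4 h value was 2.70. Its probe, shown because it carries the highest measured ratio among the members, is split over 564 bases of the genome at chr17:34274300-34274863 (mm9, plus strand).
H2-DMa: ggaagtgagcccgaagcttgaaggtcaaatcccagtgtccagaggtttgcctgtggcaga
*H2-DMb1*, which encodes the partner chain, had 1.28, 1.5, 1.80 and 1.87 on the control, 4 h, 20 h and 32 h arrays. Its log2 ratio was 0.21 ± 0.20 at 4 h, 0.52 ± 0.20 at 20 h and 0.58 ± 0.20 at 32 h, and the sign at 4 h turned under 3 of the 5 other scalings, so the partner chain did not share the difference of *H2-DMa*.

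*H2-Ab1*, the beta chain of the class II molecule I-A, was detected at 4 h only (-3.49, against -5.38 in the control, -7.23 at 20 h and -5.18 at 32 h), with a log2 ratio of at least 1.27. This bound was under 2-fold with normexp (0.77), the spike-in probes (0.87), quantile normalization (0.90), the median (0.91) and no scaling (0.99). Its second probe, which shares a run of 41 bases with the first, was detected on no array. *H2-Aa*, the alpha chain, was detected in the control only, at -4.42, so the chains of I-A were seen on different arrays. *H2-Ob*, a chain of the DM inhibitor H2-O, had 1 probe detected in the control only. That probe lay at -2.39 in the control and at -6.59, -7.33 and -6.85 on the other arrays, which gave bounds on its log2 ratio of -2.54 at 4 h, -2.72 at 20 h and -2.34 at 32 h, or -1.44, -1.78 and -1.36 with normexp. The other probes of *H2-Ob* did not show this, since 1 was detected at 4 h only, at -4.78, and 1 on no array. *H2-Oa*, the partner chain, was detected in the control (-3.81) and at 32 h (-3.39) but not at 4 h (-5.75) or 20 h (-7.41). Its bounds were -1.13 at 4 h, or -0.46 with normexp, and -1.30 at 20 h, or -0.99 with normexp and -0.97 without scaling, and its measured log2 ratio at 32 h was 0.42 ± 0.28.

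*Cd74*, the invariant chain, lay at -3.85 in the control, -2.94 at 4 h, -4.30 at 20 h and -4.86 at 32 h, the last not well above background. Its log2 ratio was 0.91 ± 0.28 at 4 h and -0.45 ± 0.32 at 20 h, with a bound of -0.88 at 32 h. *Ciita* lay at -4.19, -3.70, -5.26 and -4.85, detected in the control and at 4 h only, with 0.49 ± 0.37 at 4 h. *Rfx5*, which encodes a subunit of the RFX complex on class II promoters, was detected at 4 h only by 1 of its 2 probes, which lay at -4.99, -4.19, -5.43 and -5.11, with a bound of 0.57. Over the 3 class II chain probes with a measured ratio at 4 h (*H2-DMa*, *Cd74* and *H2-DMb1*), the median log2 ratio was 0.91, against 0.17 over all probes, and 4 further probes had bounds of both signs. In the control, the detected class II chain probes other than *H2-DMb1* lay between -4.42 and -2.39, and the dimmest detected signal of that array was -4.76.

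**Figure D2:**
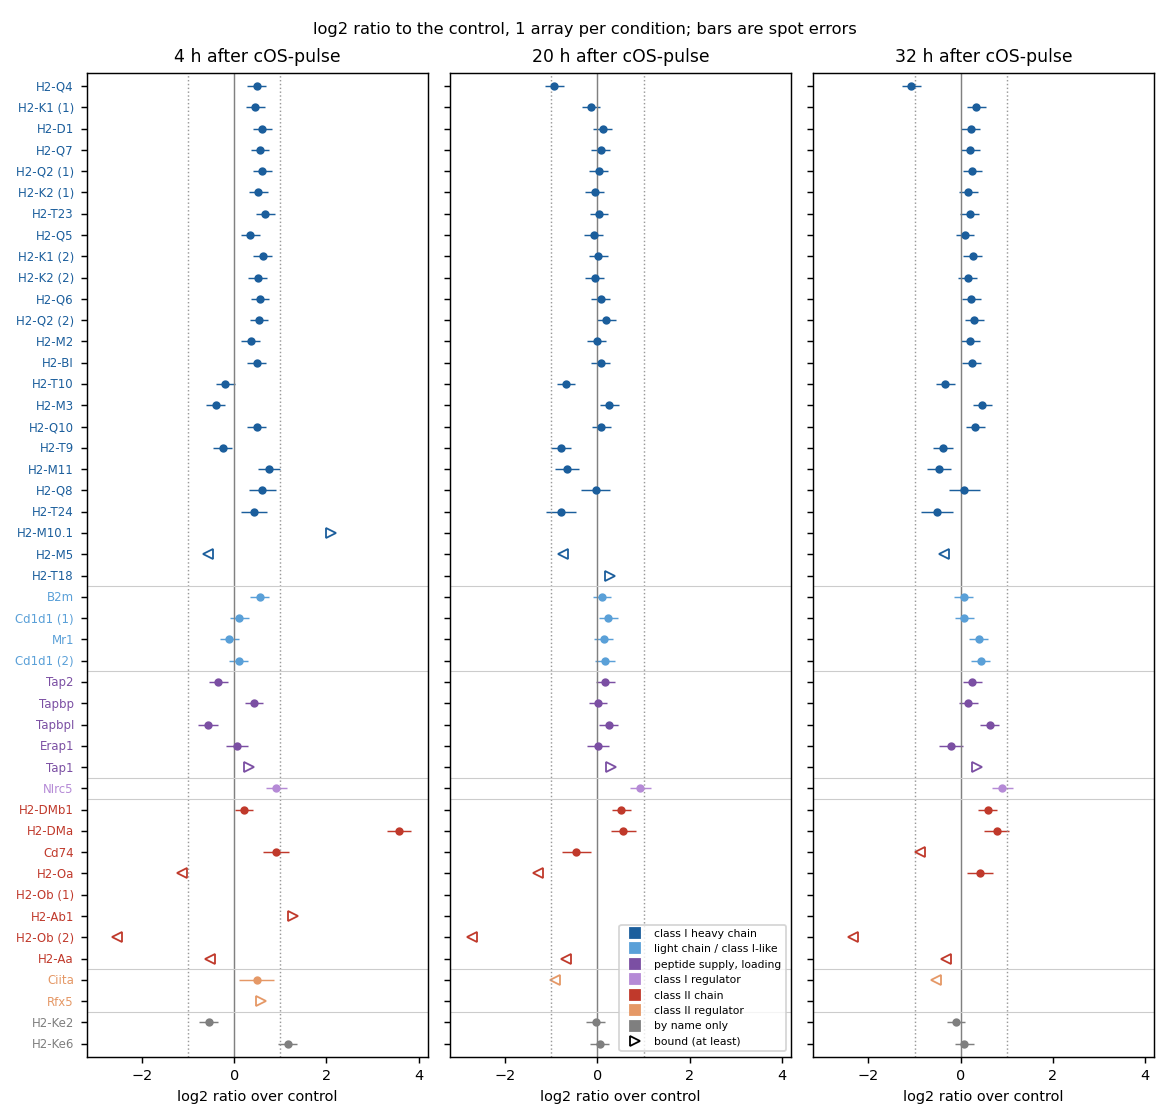
log2 ratio over the control at 4 h, 20 h and 32 h (panels) for the 46 member probes detected on at least 1 array, with spot errors as bars, open triangles for bounds and dotted lines at 2-fold. At 4 h most class I heavy chain probes lie between 0 and 1, while the class II probes scatter from -2.54 to 3.57.

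Class I heavy chains differed by less, but mostly the same way. At 4 h, the 21 probes with a measured ratio had a median log2 ratio of 0.51 with a range of -0.40 to 0.76, and none of them reached 2-fold. Of these, 18 were above the control by more than the spot error, which was so for 46.6% of all measured probes. The classical *H2-K1* had 2 probes. The one with 10 spots is not the one printed above and shares no such run with another member probe. It had 3.71 in the control, 4.17 at 4 h, 3.57 at 20 h and 4.05 at 32 h. The printed one had 1.92, 2.54, 1.95 and 2.19. The classical *H2-D1* had 3.63, 4.23, 3.74 and 3.85, and *H2-Q7*, a non-classical gene, had 2.84, 3.40, 2.91 and 3.05. In all of these the 4 h array was the highest. *B2m*, the light chain, followed with 5.88, 6.43, 5.98 and 5.94, a log2 ratio of 0.56 ± 0.20 at 4 h, 0.10 ± 0.20 at 20 h and 0.06 ± 0.20 at 32 h.

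Probes printed in 10 spots gave a view of the error within an array. For *H2-K1* the 10 spot ratios at 4 h ran from 0.39 to 0.54 with an SD of 0.050. For the detected probe of *H2-M2* they ran from 0.31 to 0.49 with an SD of 0.051. These spots measure the same RNA and do not stand for replicate cultures.

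The exceptions among the heavy chains at 4 h were *H2-M3* with -0.40 ± 0.21, *H2-T9* with -0.25 ± 0.21 and *H2-T10* with -0.19 ± 0.20. *H2-M3*, which presents N-formylated peptides, lay at -0.10, -0.49, 0.16 and 0.37, lowest at 4 h and highest at 32 h. *H2-T9* (-0.96, -1.22, -1.76 and -1.35) and *H2-T10* (0.39, 0.19, -0.30 and 0.05) were both lowest at 20 h, with log2 ratios of -0.79 ± 0.21 and -0.68 ± 0.20. *H2-M10.1* was detected at 4 h only, at -2.65 against -6.90 in the control, and was the heavy chain past 2-fold at 4 h, with a bound of 2.11, or 1.23 with normexp.

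The direction of the class I median at 4 h was the same under all 5 other scalings, but its size was not. The median of the 21 probes was 0.34 with quantile normalization and 0.39 where the 75th percentile came only from probes that every array detected. It was 0.23 on unscaled signals, 0.15 after scaling to the array median and 0.11 after scaling to the spike-in probes. The median of all probes moved along, to -0.015, 0.047, -0.11, -0.19 and -0.23. In each case 18 of the 21 probes lay above the median of all probes. Apart from quantile normalization, these scalings shift all log2 values of an array by the same amount. They cannot change which probes lie above that median, so only quantile normalization could have given another count. *H2-M2* and *H2-Q5* turned negative at 4 h under 2 of the 5 scalings.

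**Figure D3:**
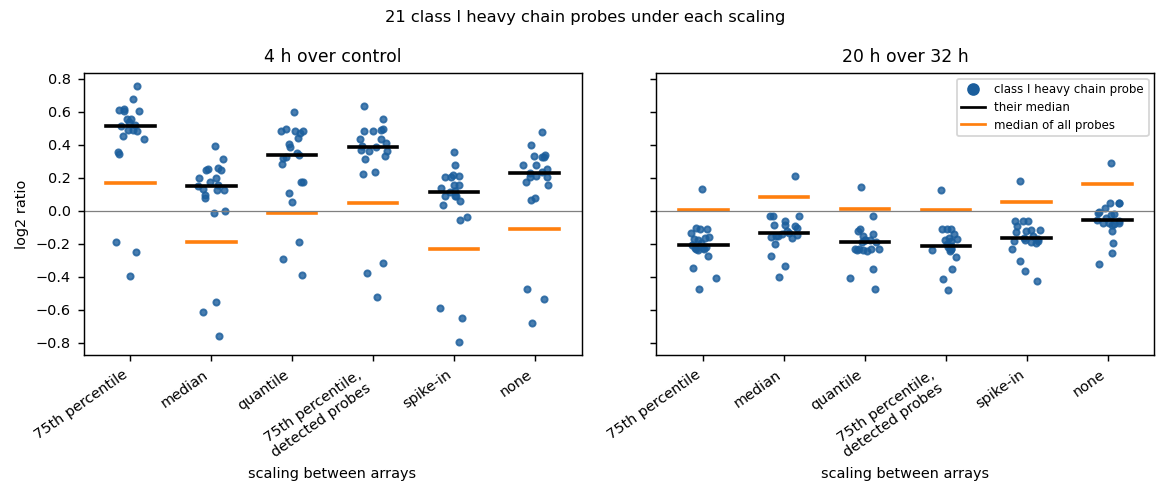
log2 ratio (y axis) of the 21 class I heavy chain probes at 4 h over control and at 20 h over 32 h under 6 ways of scaling the arrays (x axis), with their median (black) and the median of all measured probes (orange). The probes and the median of all probes move together, and the black line stays above the orange line on the left and below it on the right. Apart from quantile normalization, the scalings shift all probes of an array alike, so the gap between the lines could not change under them.

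The genes of class I peptide supply and loading did not move as 1 group at 4 h. *Tapbp* (2.53, 2.95, 2.54 and 2.69) was higher, with 0.43 ± 0.20. *Tap2*, a TAP subunit (2.90, 2.56, 3.07 and 3.15), was lower, with -0.34 ± 0.20. *Tapbpl*, which encodes the tapasin-related protein (-1.58, -2.14, -1.33 and -0.95), had -0.56 ± 0.22 at 4 h and 0.63 ± 0.21 at 32 h. *Erap1*, which trims peptides in the endoplasmic reticulum (-3.07, -3.01, -3.04 and -3.28), differed by less than its spot error, with 0.06 ± 0.24, and its sign turned under every other scaling. *Tap1* lay at -4.69, -4.36, -4.39 and -4.34, and only 2 of its 9 unflagged spots were well above background in the control, so its ratio of at least 0.33 at 4 h rests on a signal at the limit.

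*Nlrc5* had -3.18 in the control, then -2.27, -2.26 and -2.28 by the probe that was detected. Its log2 ratio was 0.91 ± 0.23, 0.93 ± 0.23 and 0.90 ± 0.23, so that the control was the low array and the 3 pulsed arrays lay together, just under 2-fold. Under other scalings the ratio fell as low as 0.51 at 4 h. It rose as high as 1.26 at 20 h and 1.08 at 32 h. Neither the closeness of the pulsed arrays nor their place under 2-fold therefore held under every scaling. The class I-like genes were close to the control at 4 h. *Mr1* lay at -0.73, -0.83, -0.59 and -0.34, with -0.11 ± 0.21 at 4 h and 0.39 ± 0.21 at 32 h. The probes of *Cd1d1* lay at 0.83, 0.95, 1.06 and 0.91 and at -1.55, -1.45, -1.38 and -1.11, with 0.11 ± 0.20 and 0.10 ± 0.21 at 4 h, and both turned negative under 4 of the 5 other scalings.

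*H2-Ke6*, which encodes a steroid dehydrogenase, was the remaining probe past 2-fold at 4 h. It lay at 1.30, 2.46, 1.35 and 1.37, with a log2 ratio of 1.16 ± 0.20, which was 0.76 when scaled on the spike-in probes, 0.80 when scaled on the median and 0.88 unscaled. *H2-Ke2* lay at 2.08, 1.52, 2.04 and 1.98, with -0.56 ± 0.20.

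At 20 h, 0 members were at least 2-fold higher (0.763% of all probes) and 2, *H2-Oa* and *H2-Ob*, were lower by bounds (1.87% of all probes). At 32 h, 0 members were higher (1.15% of all probes) and 2 were lower, *H2-Ob* by a bound and *H2-Q4* by a measured ratio (1.43% of all probes). The class I heavy chain median was -0.017 at 20 h and 0.21 at 32 h, against -0.0034 and -0.0062 over all probes. The sign at 20 h was not stable, since the median was 0.31 without scaling, where that of all probes was 0.33.

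Between 20 h and 32 h, *H2-Oa* was the member past 2-fold, lower at 20 h by a bound of -1.72 (1.06% of all probes were lower and 0.497% higher). Within class I, 20 of the 21 heavy chain probes were lower at 20 h than at 32 h, where 47.5% of all measured probes were, and 10 were so by more than the spot error, where 9.19% were. The median log2 ratio was -0.21, against 0.0083 over all probes. Without scaling it was -0.055 with 16 of the 21 probes below 0, and the median of all probes was then 0.16. The widest gap was that of the *H2-K1* probe with 10 spots, at -0.47 ± 0.20, whose spot ratios ran from -0.51 to -0.39.

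Of the 21 heavy chain probes, 5 were below the control at 20 h by more than the spot error, as 22.9% of all measured probes were, and the same 5 were so at 32 h, as 23.1% were. They were *H2-T9*, *H2-T10*, *H2-T24*, *H2-M11* and *H2-Q4*. *H2-M11* had -0.66 ± 0.25 and -0.46 ± 0.26, after 0.76 ± 0.23 at 4 h. *H2-Q4*, a non-classical heavy chain, had the lowest ratio of them at both times. It lay at 6.30 in the control, 6.78 at 4 h, 5.36 at 20 h and 5.23 at 32 h, with log2 ratios of 0.49 ± 0.20, -0.94 ± 0.20 and -1.07 ± 0.20. The 32 h value was just under 2-fold with quantile normalization (-0.96), the spike-in probes (-0.92) and no scaling (-0.89). The sequence of its probe (chr17:35521294-35521353, mm9, plus strand) recurs elsewhere. A run of 17 bases of it was found in 38 of 32817 promoter windows (250 bases before to 50 after a gene start, RefSeq, GRCm38.p6, both strands), and 1.51% of all probes reached 10 windows. The 30 bases around the most frequent run are shown with that run, held by 28 windows, in capitals.
H2-Q4: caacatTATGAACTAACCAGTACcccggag
Among the other members, *Ciita* shared a run with 18 windows, *H2-T24* with 6, 10 probes with 1 or 2 and 57 with none. At 20 h all 3 were low, with -0.94 for *H2-Q4*, a bound of -0.92 for *Ciita* and -0.79 ± 0.34 for *H2-T24*. Over the probes of the array with 10 or more windows, the median log2 ratio was 0.34 at 4 h, -0.12 at 20 h and -0.038 at 32 h, against 0.15, 0.0012 and -0.0051 over the probes with none. The part of recurring sequence in these values was not tested, and the run length and bins were chosen after the values were seen.

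**Figure D4:**
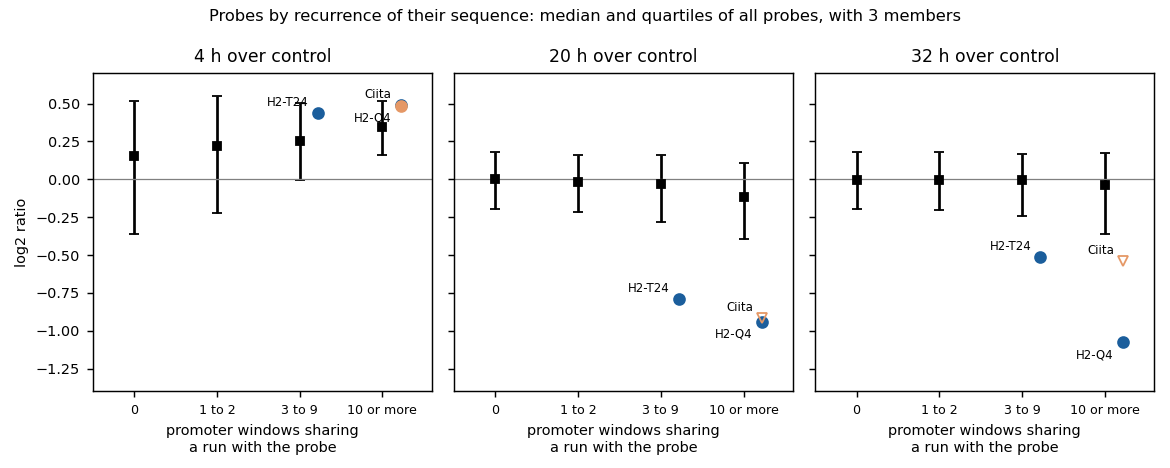
Median and quartiles (squares and bars) of the log2 ratio over control (y axis) of all measured probes, by the number of promoter windows that share a 17-base run with the probe (x axis), at 4 h, 20 h and 32 h, with the 3 members that share a run with 3 or more windows as round points or, for bounds, triangles. At 20 h and 32 h the 3 members lie below the lower quartile of their bin.

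The members sit mostly in 1 stretch of chromosome 17. Between 34076578 and 37618439 (mm9) the array had 282 probes, 52 of them members and 230 neighbours. Of the neighbours, 8.26% were at least 2-fold higher at 4 h and 3.04% lower, and their median log2 ratio was 0.16, against 0.52 for the measured members there. Around *H2-DMa*, both probes of *Brd2*, a bromodomain protein, had 1.19 and 1.11 at 4 h, whereas *Psmb9*, an immunoproteasome subunit, had -0.019 by the probe detected on both arrays.

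**Figure D5:**
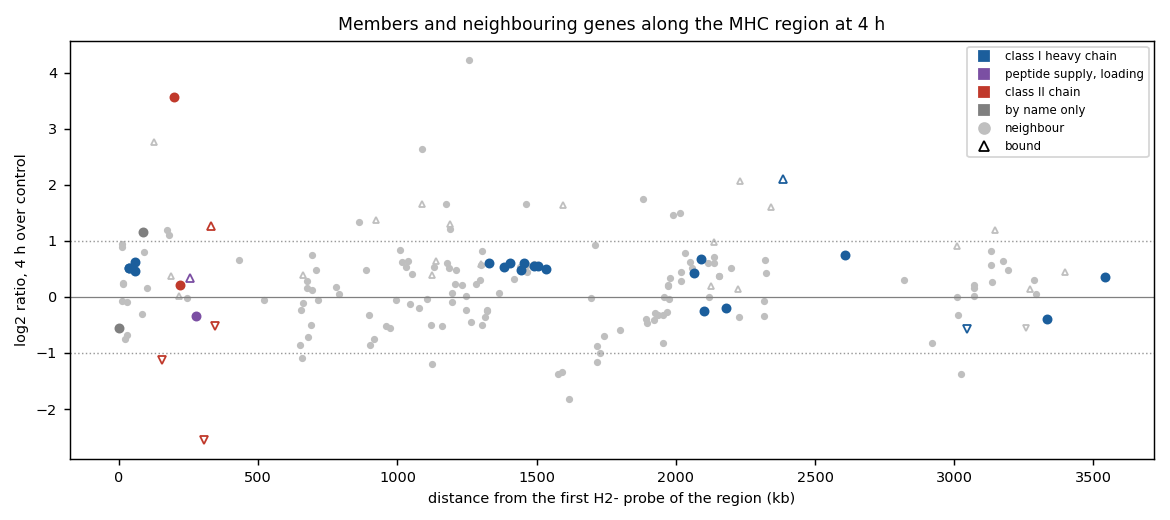
log2 ratio at 4 h over control (y axis) against distance from the first H2- probe of the region in kb (x axis), for members colored by role and 230 neighbouring probes in gray where they had a ratio, with open triangles for bounds and dotted lines at 2-fold. *H2-DMa* at 3.57 and *H2-Ob* at -2.54 lie within the same class II stretch, and most class I heavy chains lie between 0 and 1.

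Promoter windows were matched for 36 of the 53 member genes, 20 of them heavy chain and 8 class II chain genes. Of 12 motifs searched on both strands, the motif GGGATTCCC, a form of the NF-kappa-B site, was in 0.353% of all windows and in 4 member genes, and GAAGTGAAA, part of an interferon response element, was in 0.506% of all windows and in 7. These 7 were all class I heavy chain genes. The stretch around both is shown as the coding-strand sequence with matches in capitals (the second reads TTTCACTTC here). *H2-K1*, *H2-D1* and *H2-Q7* hold the exact first motif. *H2-Q4* has gggatttccc there, with 1 more T. That form was not searched, so the missing match does not show that *H2-Q4* lacks such a site. Positions are chr17:34000426-34000469 for *H2-K1* (minus strand), chr17:35262912-35262955 for *H2-D1*, chr17:35439010-35439053 for *H2-Q7* and chr17:35379432-35379475 for *H2-Q4* (plus strand), in GRCm38.p6.
H2-K1: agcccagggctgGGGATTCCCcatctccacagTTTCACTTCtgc
H2-D1: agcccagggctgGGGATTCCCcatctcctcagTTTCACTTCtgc
H2-Q7: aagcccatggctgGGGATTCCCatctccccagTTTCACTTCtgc
H2-Q4: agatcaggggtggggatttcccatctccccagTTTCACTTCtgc
At 4 h, *H2-K1* (the probe with 10 spots), *H2-D1* and *H2-Q7* had log2 ratios of 0.46 ± 0.20, 0.61 ± 0.20 and 0.56 ± 0.20, and *H2-Q4* had 0.49 ± 0.20. *H2-M3*, which also holds GAAGTGAAA, had -0.40 ± 0.21. Some heavy chain genes whose windows hold neither motif were also higher. *H2-M2* had 0.36 ± 0.20, *H2-T23* 0.68 ± 0.20, *H2-M11* 0.76 ± 0.23 and the probes of *H2-Q2* 0.61 ± 0.20 and 0.54 ± 0.20. A part of the motifs in these ratios was not tested. Of the other motifs, ATTGG was in 37.4% of all windows and 30 member genes, TGACNNNGC in 12.4% and 5, TGACGC in 7.39% and 4, CACGTG in 7.15% and 1, and TGACGTCA in 1.79% and 1. A long interferon-stimulated response element was in 3.43% of windows and 3 member genes with free middle bases, and in 0.232% and 1 (*B2m*) in its fixed form. The heat shock element (0.603%) and the other searched forms of the NF-kappa-B site (0.0884% and 0.0396%) were in none. Matches of different motifs overlapped 3 times in the member windows.

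Other genes of the pathway, from lists by role, went in different directions at 4 h. Of 22 probes for the interferon axis, 16 had a measured ratio at 4 h, with a median of -0.33. *Irf1* and *Irf3*, interferon regulatory factors, were lower with -1.01 ± 0.20 and -1.17 ± 0.20. The other *Irf1* probe did not show this, since it was detected at 4 h only, at -4.86 against -6.30 in the control. *Irf9*, part of the factor that answers type I interferon, was higher with 1.24 ± 0.21. Of the immunoproteasome list (8 probes), *Psmb10* was lower with -1.14 ± 0.20. The 3 chaperones of class I assembly, *Calr*, *Canx* and *Pdia3*, had a median of 0.53, and none passed 2-fold. Of 11 probes for the partners of the class II enhanceosome, *Rfxank* was lower with -2.94 ± 0.27 and *Creb1* was higher with 1.29 ± 0.22 by 1 of its 3 probes, while the second gave 0.078 ± 0.32 and the last was detected on no array. Among 7 probes for endosomal processing, *Ctss*, the protease that trims the invariant chain, was detected at 4 h only, with a log2 ratio of at least 4.37. Of 8 probes for NF-kappa-B subunits, those of *Nfkb1* were higher with 1.26 ± 0.21 and 1.38 ± 0.21, and the median of the 7 measured probes was 0.40.

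Markers were read beside the class II values. All 12 fibroblast probes were detected on all 4 arrays, with a median log2 ratio of -0.34 at 4 h, where *Pdgfra* had -1.55 ± 0.20 and *Pdgfrb* -1.35 ± 0.20. At 20 h, 3 of them (*Col1a1*, *Col3a1* and *Thy1*) were at least 2-fold lower. Of 12 macrophage probes 5 were detected on all arrays and 6 on none, of 10 dendritic cell probes 1 and 6, of 7 B cell probes 2 and 2, and of 8 T and NK cell probes 2 and 6. The summed scaled signal of the B cell list was 0.580 in the control, 1.57 at 4 h, 0.335 at 20 h and 0.359 at 32 h, and that of the dendritic cell list was 0.188, 0.521, 0.164 and 0.157. *Cd79a* had 2.40 ± 0.23 at 4 h by 1 probe and a bound of 0.60 by the other, and *Cd79b* and *Itgax* had bounds of 2.70 and 1.97. *Flt3* had a bound of 2.44 by 1 of its 3 probes, 0.12 ± 0.28 by the probe detected on all arrays, and no detection by the last. The lists of non-immune cell types had, as summed signal, 0.642 in the control and 1.40 at 4 h for the epithelial list (*Krt8* 1.10 ± 0.30 and 1.17 ± 0.21) and 3.23 and 4.31 for the endothelial list (*Cdh5* 1.87 ± 0.30). Among the immune markers, *Ptprc*, *Emr1*, *Lyz2* and *Ms4a1* were detected on no array. Others from the same lists were detected on all 4. By the brightest such probe, their control log2 signals were 4.35 for *Itgam*, 0.73 for *Cd14*, 0.55 for *Cd4* and 0.19 for *Csf1r*. They were -0.81 for *Cd3e*, -1.22 for *Cd22*, -3.36 for *Cd79a* and -3.67 for *Flt3*. Probes of the same gene differed widely. The other *Itgam* probes lay at -4.25 and, not detected, at -5.20 in the control. The other *Cd4* probe and 1 *Csf1r* probe were detected on no array. The part of other cell types in the class II values was not tested, and fewer cells of a type and less RNA per cell cannot be told apart in these samples.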

How the data were processed

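RNA of 4 cultures was hybridized to 1 array each. The authors deposited background-subtracted spot intensities from Agilent Feature Extraction 10.7.3.1, with probe positions in mm9, and a rescaled copy of them. From the deposited intensities, unflagged spots were averaged per probe as log2 values, and the 75th percentile over 39429 probes was subtracted. Ratios count as measured if both arrays of a pair detected the probe. If only 1 did, the dim side was replaced by its own signal or, if greater, by the dimmest detected signal of that array, and the result is a bound. Calls used 2-fold. No test was possible with 1 array per condition, which limits the precision. Values on all 4 arrays are given for members past 2-fold, the 5 brightest and the detected members not named H2-, and examples beyond these were chosen after their values were seen. The members, lists, motifs and alternatives were chosen with earlier results of these data known. A result that needs an item withheld for evaluation is not reported here. The steps were tested on simulated data. Python 3.11.15, pandas 2.3.3, R 4.3.3 and limma 3.58.1 (normexp, offset 50) were used.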

Additional observations from a re-analysis of the deposited data

How the results depend on the processing

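No paired analysis was possible because each condition was 1 array. Percentages in brackets are shares of all probes and belong only to the fold threshold just before them. Such shares were not computed for the other alternatives, so those member counts have no background to be read against. At 4 h, the count of members at least 2-fold higher was 2 with scaling by the median, by the spike-in probes or without scaling, 2 with detection on both arrays, 12 at 1.5-fold (14.9% of all probes) and 2 at 3-fold (2.6%), in place of 4. The count lower at 4 h, 2, became 4 with quantile normalization, 1 with normexp, 5 without a detection filter or with the flag for positive and significant signals, 0 with detection on both arrays, 1 at 3-fold (1.55% of all probes) and 1 with 1 value per gene name. At 20 h, the count higher, 0, became 1 with the median, the spike-in probes, no scaling, no detection filter, the positive and significant flag or 1.5-fold (2.51% of all probes), and the count lower, 2, became 1 without scaling, at 3-fold (0.634%) or with 1 value per gene name, 10 without a filter, with the positive and significant flag or at 1.5-fold (4.29%), and 0 with detection on both arrays. At 32 h, the count higher, 0, became 1 with the spike-in probes, no scaling, no filter or the positive and significant flag, and 3 at 1.5-fold (3.23%). The count lower, 2, became 1 with quantile normalization, the spike-in probes, no scaling, detection on both arrays, 3-fold (0.451%), 1 value per gene name or, as an alternative chosen after seeing the data, without 3 probes in repeated sequence, and 7 without a filter or with the positive and significant flag. Between 20 h and 32 h the count, 1, became 6 without a filter or with the positive and significant flag, and 0 with detection on both arrays. The median log2 ratio at 4 h of class I chains (heavy chains, *B2m*, *Cd1d1* and *Mr1*), 0.49, was 0.13 with the median, 0.093 with the spike-in probes and 0.21 without scaling. That of class II chains, 0.91, was 0.55 with the median, 0.64 with quantile normalization, 0.51 with the spike-in probes, 0.63 without scaling, 0.58 with normexp, -0.12 without a filter and 0.46 with the positive and significant flag. The cause of these shifts was not tested. Of 295 values of single probes under an alternative, 186 moved by less than the spot error (for bounds, the median spot error of the measured members). None of those past 2-fold changed sign. A bound takes its sign from the array that detected the probe, so under most alternatives a bound could not change sign. The lack of changes therefore says little about bounds. Leaving out *H2-Ke2* and *H2-Ke6*, also chosen after seeing the data, kept every count within 1.5 times.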
